A study of Homo sapiens with 4 samples.

Results

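KLF4 and STAT3 were each measured by a single bead probe, so that the results below rest on 2 of the 47293 probes of the array. The probes are GI_34916057-S for KLF4 and GI_21618337-A for STAT3, and the study's list of probe names, as held here, pairs no other probe with either symbol. By the manufacturer's naming, the STAT3 probe reads all isoforms of the transcript and the KLF4 probe a gene with a single transcript. RNA came from NCCIT, a human embryonal carcinoma (hEC) cell line that grows as undifferentiated cells resembling embryonic stem cells, kept in high-glucose DMEM with 10% FCS in all 4 groups. The groups were mock-treated cells, which received the transfection reagent alone, and cells in which OCT4 (encoded by POU5F1), SOX2 or NANOG had been silenced with esiRNA, a pool of short double-stranded RNAs made by digesting a long one with an endoribonuclease. By the sample descriptions all cells were harvested on day 2.5, whereas the study's methods name other harvest days, and each group comprised 3 arrays of separate biological replicates of this 1 cell line, giving 12 arrays in all. The comparison asks how the transcripts of these additional regulators respond when each core factor is removed.

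KLF4 is a zinc finger transcription factor of the Krüppel-like family that binds GC-rich and CACCC sequences, restrains proliferation in epithelia and, together with Oct4, Sox2 and c-Myc, reprograms fibroblasts to a pluripotent state. STAT3 is a latent cytoplasmic transcription factor. Cytokines of the IL-6 and LIF family bind receptors that contain gp130, JAK kinases attached to the receptor phosphorylate STAT3, and the phosphorylated dimer enters the nucleus, while SOCS proteins and tyrosine phosphatases limit the signal. LIF acting through STAT3 sustains self-renewal of mouse embryonic stem cells. The arrays report transcript levels and not the phosphorylation through which STAT3 is activated.

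The 250 bases before the annotated start of each gene are shown because both transcripts fell when OCT4 or SOX2 was silenced. They are from RefSeq (GRCh38.p14), in the direction of transcription, and capitals mark each match to GGGCGG on either strand, the GC box bound by SP and Krüppel-like factors. The KLF4 sequence lies at chr9:107489770-107490019 and the STAT3 sequence at chr17:42388443-42388692, both on the minus strand.
KLF4: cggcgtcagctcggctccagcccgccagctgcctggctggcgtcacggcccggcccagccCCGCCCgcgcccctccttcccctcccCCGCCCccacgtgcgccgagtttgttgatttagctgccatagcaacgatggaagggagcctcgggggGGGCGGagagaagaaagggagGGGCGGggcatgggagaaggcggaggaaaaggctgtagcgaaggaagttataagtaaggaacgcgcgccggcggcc
STAT3: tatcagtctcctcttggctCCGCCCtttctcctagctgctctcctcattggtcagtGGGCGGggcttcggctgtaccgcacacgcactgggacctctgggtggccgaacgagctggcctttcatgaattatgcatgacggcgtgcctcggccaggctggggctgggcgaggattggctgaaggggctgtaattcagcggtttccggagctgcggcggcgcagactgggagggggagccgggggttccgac
GC boxes were found 4 times before KLF4 and 2 times before STAT3. Of the 35116 promoter windows searched, each the 250 bases before an annotated start, 42.6% held at least 1. The octamer ATGCAAAT of OCT4 (in 1.63% of windows), the SOX core CATTGT (9.29%) and the STAT site TTCNNNGAA (6.57%) did not occur in either window on either strand. These letters describe the sequence and nothing was measured on the promoters here. Exact matches in 250 bases cannot show whether a factor binds there or elsewhere near the gene. The paper's table of published binding data from human embryonic stem cells marks STAT3 as bound by OCT4, NANOG and SOX2. It holds no such mark for KLF4.

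The silencing reagents are shown because every comparison depends on them. Each esiRNA pool was made from an amplicon of the target transcript, for which the study gives these gene-specific primer parts, 5′ to 3′, each carried behind a T7 promoter.
OCT4 forward: gagaaggagaagctggagca
OCT4 reverse: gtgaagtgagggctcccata
SOX2 forward: catcacccacagcaaatgac
SOX2 reverse: ggaaagttgggatcgaacaa
NANOG amplicon 1 forward: aactggccgaagaatagcaa
NANOG amplicon 1 reverse: ctcgctgattaggctccaac
NANOG amplicon 2 forward: gactgagctggttgcctcat
NANOG amplicon 2 reverse: tctggaaccaggtcttcacc
The sample descriptions do not say which of the 2 NANOG amplicons was used on these arrays.

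The silenced transcripts were examined first. The POU5F1 probe read a normalized intensity of 613 ± 56.0 (SD, n = 3) in mock cells and 33.6 ± 6.65 with OCT4 silenced, and thus fell by 4.21 ± 0.13 (SE) on the log2 scale, with detection on 1 of 3 arrays of the silenced cells. The NANOG probe read 342 ± 21.2 in mock cells and 95.2 ± 5.55 with NANOG silenced, 3.6-fold lower. No probe carries the name SOX2 in the list used, so the SOX2 label was not checked here on its own target. The paper states that SOX2 fell under the detection limit of the arrays, and it measured SOX2 by real-time PCR and by Western blot. In the cells labelled SOX2 knock-down the POU5F1 probe was detected on none of 3 arrays and was at least 16.7-fold lower than in mock cells. Arrays of the same group correlated at r = 0.992 to 0.997 over the tested probes, and the OCT4 and SOX2 knock-downs were nearly as close to each other (0.99 to 0.995), whereas mock arrays correlated with these at 0.931 to 0.938 and with the NANOG knock-down at 0.972 to 0.982.

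Markers of the cell state moved with the groups. The 10 tested probes for 9 of 10 listed markers of undifferentiated cells summed to a normalized intensity of 27289 to 28540 on the mock arrays, 5459 to 6347 with OCT4 silenced, 5241 to 5760 with SOX2 silenced and 18854 to 20008 with NANOG silenced. The 6 mesoderm-like markers (ACTA2, ACTC1, HAND1, MSX1, COL1A1, RUNX1) summed to 695 to 737, 6391 to 6552, 5412 to 6064 and 2048 to 2514 in the same order. With NANOG silenced HAND1 alone of these 6 was called (1.87 on the log2 scale), whereas all 6 were called with OCT4 and with SOX2 silenced. COL1A1, RUNX1, MSX1 and ACTC1 were detected on none of the mock arrays. They were tested only because other groups detected them, so the direction of their change from mock was set in advance. The listed trophoblast, endoderm and neural markers had no named probe among those tested. In bulk RNA, fewer cells of a type and less RNA per cell cannot be told apart, and the part of the change of cell state in the values of KLF4 and STAT3 was not tested.

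KLF4 transcript was abundant in mock cells and low in both the OCT4 and the SOX2 knock-down, and it was 1.22-fold below the mock level when NANOG was silenced. The raw KLF4 signal was 581.3, 650.6 and 522.1 on the 3 mock arrays. It was 279.2, 234.6 and 236.2 with OCT4 silenced, 228.3, 224.2 and 204.5 with SOX2 silenced, and 631.1, 545.9 and 506.5 with NANOG silenced. All 6 arrays of the OCT4 and SOX2 knock-downs lay below all mock arrays, and the NANOG arrays overlapped with the mock arrays. The probe was detected on all 12 arrays, where a detection score above 0.99 counts as detected.

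After background correction and quantile normalization the KLF4 intensity was 631.7, 672.5 and 590.5 in mock cells. It was 120.7, 107.7 and 112.1 with OCT4 silenced, 121.6, 127.4 and 126.5 with SOX2 silenced, and 550.2, 496.5 and 499.7 with NANOG silenced. On this scale the NANOG arrays lay below the mock arrays with no overlap, and the OCT4 arrays, at 107.7 to 120.7, lay just below the SOX2 arrays, at 121.6 to 127.4. KLF4 fell by 2.48 ± 0.07 on the log2 scale (SE) with OCT4 silenced, 5.56-fold (limma, adjusted p = 7.26e-11), and by 2.33 ± 0.07 with SOX2 silenced, 5.04-fold (adjusted p = 1.17e-10). A probe was called changed at an adjusted p under 0.05 and a change of at least 1.5-fold, and 24.8% of the 12374 tested probes were called with OCT4 silenced (10.8% lower and 14% higher) and 24.1% with SOX2 silenced (10.5% lower and 13.5% higher). Among all tested probes 50 (0.404%) had a lower change than KLF4 with OCT4 silenced and 63 (0.509%) with SOX2 silenced.

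With NANOG silenced the KLF4 change was -0.29 on the log2 scale (95% interval -0.46 to -0.13; adjusted p = 0.0117), 1.22-fold, which is under the 1.5-fold limit, in a comparison where 9.53% of probes were called (4.34% lower and 5.19% higher). Over the alternatives that leave out 1 array its adjusted p ran from 0.0113 to 0.0521, the highest without mock replicate 2. In this comparison 1839 tested probes (14.9%) had a lower change than KLF4. The OCT4 and SOX2 knock-downs did not pass the test against each other for KLF4, at a difference of -0.14 (95% interval -0.31 to 0.02; adjusted p = 0.581). With NANOG silenced KLF4 was 4.54-fold higher than with OCT4 silenced (adjusted p = 2.8e-10) and 4.11-fold higher than with SOX2 silenced (adjusted p = 5e-10), in comparisons where 21.4% of the probes each were called and 9.43% and 9.67% were called higher. The KLF4 decrease with OCT4 silenced was smaller with no background correction, at -1.83 on the log2 scale, and with no normalization between arrays, at -1.73, and it was called under both.

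**Figure D1:**
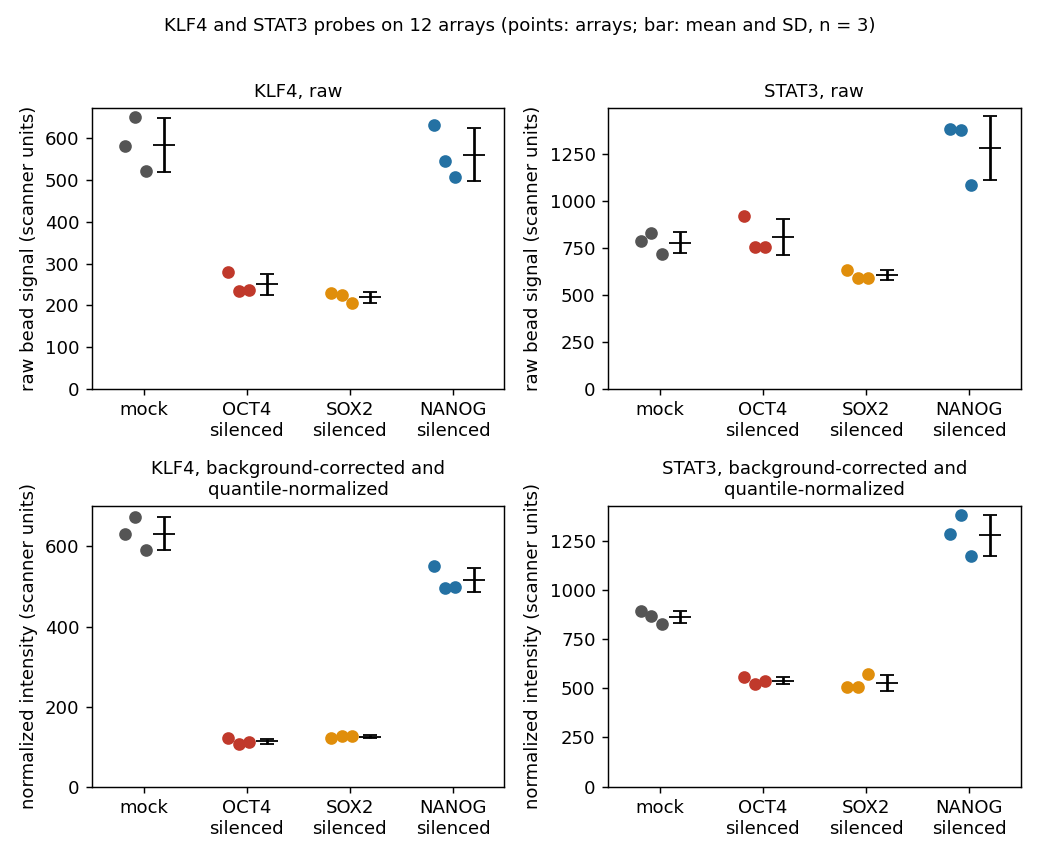
Raw bead signal (upper panels) and normalized intensity (lower panels) of the KLF4 and STAT3 probes, both in scanner units, with a point for each of 12 arrays and a bar for mean and SD of each group (n = 3). KLF4 is low in both panels where OCT4 or SOX2 was silenced, whereas the raw STAT3 signal with OCT4 silenced, 752.9 to 918.6, overlaps with the mock arrays and the normalized one, 521.2 to 560.2, does not.

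STAT3 transcript was present in every group and differed less. Its normalized intensity was lower than in mock cells with OCT4 or SOX2 silenced and highest with NANOG silenced. The raw STAT3 signal was 789.1, 829.6 and 715.9 on the mock arrays and 918.6, 754.6 and 752.9 with OCT4 silenced. It was 634.8, 589.6 and 589.5 with SOX2 silenced, and 1382.7, 1377.4 and 1083.7 with NANOG silenced. Before normalization the OCT4 arrays therefore overlapped with the mock arrays, the SOX2 arrays lay below them and the NANOG arrays above them.

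The OCT4 arrays were brighter as a whole: the 95th percentile of their raw signals was 1216 to 1446.8, against 791.5 to 875.4 on the mock arrays, 894.2 to 1084.5 on the SOX2 arrays and 873.8 to 1022.1 on the NANOG arrays. After normalization the STAT3 intensity was 891.7, 870.3 and 829.1 in mock cells and 560.2, 521.2 and 536.6 with OCT4 silenced. It was 504.8, 505.6 and 573.4 with SOX2 silenced, and 1283, 1380 and 1171 with NANOG silenced. On this scale the NANOG arrays lay above the mock arrays and the OCT4 and SOX2 arrays below them, and the OCT4 and SOX2 arrays overlapped. STAT3 fell by 0.68 ± 0.08 on the log2 scale with OCT4 silenced, 1.6-fold (adjusted p = 1.57e-05), and by 0.71 ± 0.08 with SOX2 silenced, 1.64-fold (adjusted p = 1.02e-05). Both 95% intervals reached below the 1.5-fold limit.

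With no normalization between arrays the STAT3 change with OCT4 silenced was 0.02 on the log2 scale (adjusted p = 0.881) and the median of all tested probes was 0.65, so that STAT3 stood at -0.63 relative to that median. The same value relative to the median was -0.65 with quantile normalization, -0.71 with scaling to the median of detected probes and -0.69 with scaling on rank-invariant probes. Subtracting the median is itself a form of scaling, so these values are not independent of one another. The decrease of STAT3 with OCT4 silenced was thus measured relative to the other transcripts, and the raw signal alone does not show it. With SOX2 silenced the unnormalized change was -0.44 (adjusted p = 0.00871), and -0.70 relative to its median of 0.26.

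**Figure D2:**
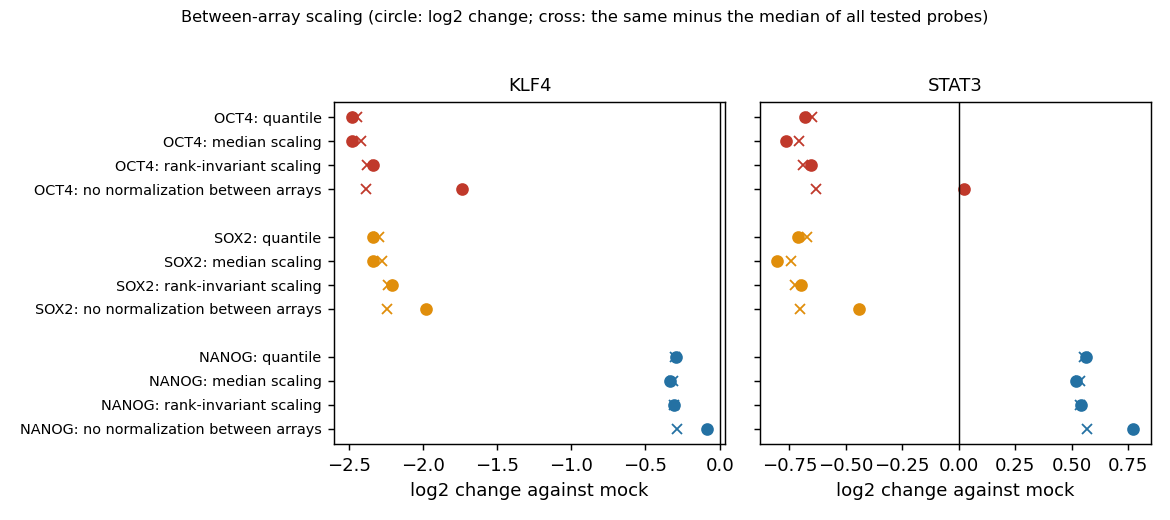
Log2 change against mock (horizontal axis) of KLF4 and STAT3 in each knock-down under 4 ways of scaling the arrays. Circles give the change and crosses the change minus the median of all tested probes; without normalization the STAT3 circle for OCT4 lies at 0.02 while its cross, at -0.63, lies near those of the other settings. Subtracting the median is itself a form of scaling.

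With NANOG silenced STAT3 was 0.56 higher than in mock cells on the log2 scale (95% interval 0.39 to 0.74; adjusted p = 0.000271), or 1.48-fold, so that it passed the p threshold and missed the 1.5-fold limit. Without mock replicate 1 the change was 0.59 and without NANOG replicate 3 it was 0.62, and both were called. With NANOG silenced STAT3 was 2.36-fold higher than with OCT4 silenced (adjusted p = 8.07e-08) and 2.42-fold higher than with SOX2 silenced (adjusted p = 6.1e-08). The OCT4 and SOX2 knock-downs differed by 0.03 (95% interval -0.14 to 0.21; adjusted p = 0.955). In that comparison limma called 0 of the 12374 tested probes (0%), 1210 had an unadjusted p under 0.05, and the methods' t-test called 20 at an unadjusted p under 0.01 and 1 after Benjamini-Hochberg adjustment.

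Among all tested probes 1016 (8.21%) had a lower change than STAT3 with OCT4 silenced and 936 (7.56%) with SOX2 silenced, and 705 (5.7%) had a higher change with NANOG silenced. The 3 comparisons with mock share the mock arrays. Both genes have a name here because the study listed them as changed in these samples, so their calls against mock are not independent of how they were found.

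**Figure D3:**
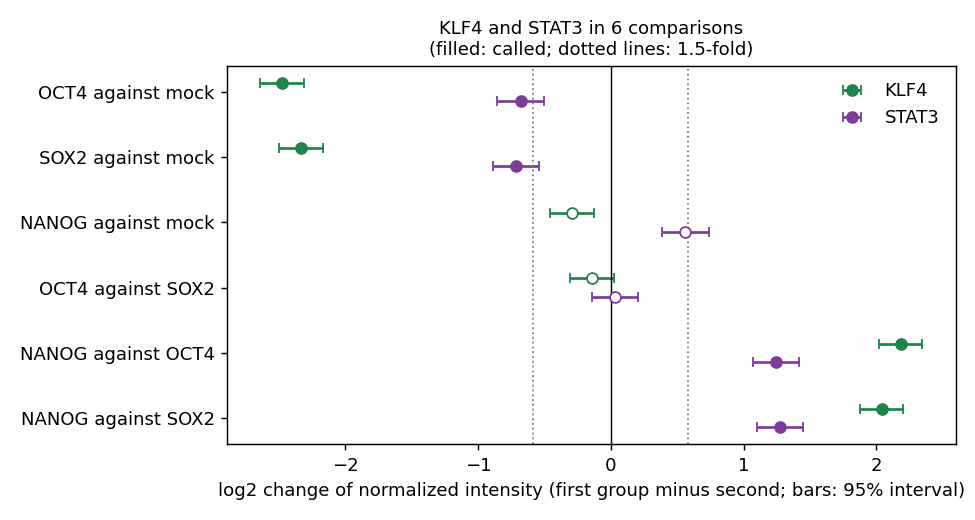
Log2 change of normalized intensity (horizontal axis, first group minus second, with 95% intervals) of KLF4 and STAT3 in 6 comparisons; filled points were called and dotted lines mark 1.5-fold. KLF4 lies at -2.48 and -2.33 in the OCT4 and SOX2 knock-downs and at -0.29 in the NANOG knock-down, and STAT3 at -0.68, -0.71 and 0.56.

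**Figure D4:**
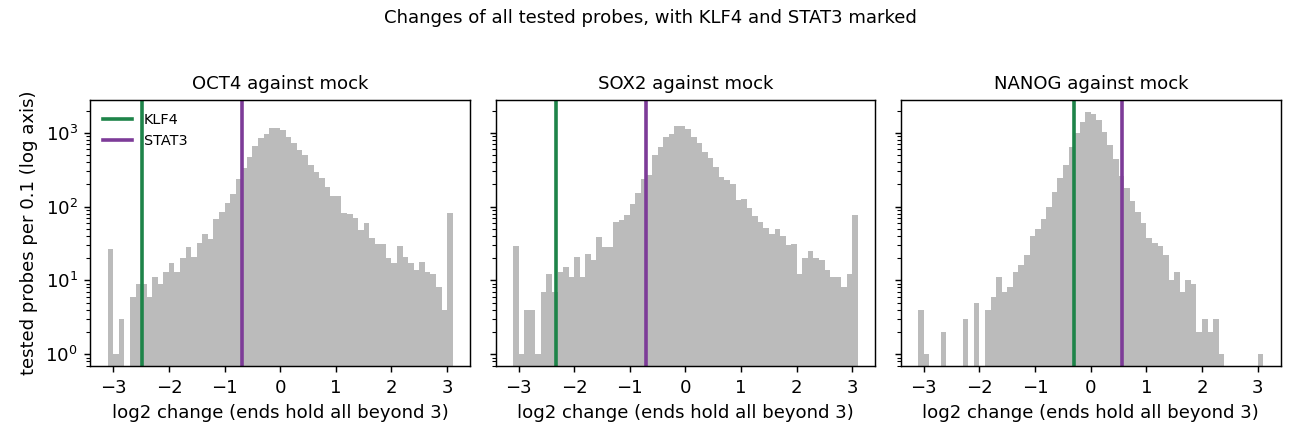
Number of the 12374 tested probes per 0.1 of log2 change against mock (log vertical axis), with green and purple lines for KLF4 and STAT3. KLF4 has 50 probes below it with OCT4 silenced, STAT3 has 1016, and with NANOG silenced 1839 probes lie below KLF4 and 705 above STAT3.

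The direction in the 3 knock-downs distinguished the genes. KLF4 was of the kind called lower with OCT4 and with SOX2 silenced and not called with NANOG silenced, as were 798 tested probes (6.45%). By the adjusted p alone, which 56.6% of probes passed with OCT4 silenced, 55.2% with SOX2 silenced and 30.6% with NANOG silenced, it belonged to 1086 probes (8.78%) lower in all 3 knock-downs. STAT3 by the adjusted p alone belonged to 204 probes (1.65%) that were lower with OCT4 and SOX2 silenced and higher with NANOG silenced. Of these kinds, 34 probes (0.275%) passed the fold limit in all 3 comparisons, STAT3 not among them. They included 3 probes of FEZ1, an adaptor of axonal transport, 2 of CYP26A1, which degrades retinoic acid, and probes of the homeobox gene OTX2, of FST (follistatin, an activin-binding protein), of ERBB2, a receptor tyrosine kinase, and of TFAP2A, a transcription factor of ectoderm. These examples were picked after their values were seen.

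Over the 12 arrays the log2 levels of KLF4 and STAT3 correlated at r = 0.879, and their deviations from the group means at r = 0.344. The named probes most like KLF4 were GPRC5B, an orphan G protein-coupled receptor (r = 0.998), RPRM, a mediator of G2 arrest downstream of p53 (0.997), NLGN4X, a neuroligin of synapses (0.996), ZNF875, a zinc finger protein (0.994), and PLAAT3, a phospholipase and acyltransferase (0.994). GPRC5B changed by -2.42 on the log2 scale with OCT4 silenced, -2.19 with SOX2 silenced and -0.26 with NANOG silenced. ZNF875 had the same shape with smaller changes of -0.97, -0.99 and -0.08. Among the named probes most like STAT3 were DHTKD1, a mitochondrial dehydrogenase (r = 0.991), a FEZ1 probe (0.99), CYP26A1 (0.988) and a further FEZ1 probe (0.988). DHTKD1 changed by -0.92, -0.90 and 0.51 in the same order, and the CYP26A1 probe by -1.37, -1.44 and 1.22. Each r is over 12 arrays that fall into 4 groups and were normalized together, and it describes these arrays only.

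The other genes of both families and of the pathway were given names through a list of the genes that the study found changed in these same samples. That list holds probes because they changed, so the counts below are not independent evidence of a direction, and shares of a family cannot be read from them. Of the 2985 named probes tested, 46.7% were called higher and 33.4% lower with OCT4 silenced, 45.5% and 31.4% with SOX2 silenced, and 15.9% and 12.1% with NANOG silenced, against 14% and 10.8%, 13.5% and 10.5%, and 5.19% and 4.34% of all tested probes. Of the Krüppel-like factors, KLF5, KLF6 and KLF16 had named probes beside KLF4. KLF5, which supports self-renewal in mouse embryonic stem cells and is expressed in epithelia, was detected on none of the mock or NANOG arrays. It rose at least 4.97-fold with OCT4 silenced and at least 4.51-fold with SOX2 silenced. KLF5 passed the detection filter only through the OCT4 and SOX2 arrays, so the direction of its change was set in advance. KLF6, a broadly expressed member, rose by 2.38 on the log2 scale with OCT4 silenced and by 2.51 with SOX2 silenced. Hence 2 of the 3 other named probes rose where KLF4 fell. With NANOG silenced none of the 3 was called: KLF5 was detected in neither group, KLF6 measured 0.12 and KLF16 0.57 (1.48-fold, adjusted p = 0.00597), and KLF16 was called there with median or rank-invariant scaling, and without mock replicate 1 or NANOG replicate 1. KLF16 measured -0.02 with OCT4 silenced, a sign that turned with median scaling (0.10) and with rank-invariant scaling (0.18).

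Of 6 named probes for genes that KLF4 is known to regulate, 5 rose and 1 fell with OCT4 silenced and likewise with SOX2 silenced, and their median change was 1.43 and 1.54 on the log2 scale, against -0.03 and -0.04 over all tested probes. All 6 probes carry a name because the study had listed them as changed. Of all named probes, 46.7% and 45.5% were called higher and 33.4% and 31.4% lower. Of all tested probes, 14% and 13.5% were called higher and 10.8% and 10.5% lower. CDKN1A (p21), the cyclin-dependent kinase inhibitor that KLF4 activates, rose 3.14-fold and 3.21-fold. CCND1 (cyclin D1), which KLF4 represses, rose 2.4-fold and 2.65-fold. Whether the level of KLF4 bears on CDKN1A or CCND1 in these cells was not tested. KRT19, an epithelial keratin, rose 4.85-fold and 4.91-fold. LEFTY1, an inhibitor of Nodal signalling, fell 1.95-fold and 1.53-fold, and the latter was not called with median or rank-invariant scaling, nor without mock replicate 1 or SOX2 replicate 1. With NANOG silenced, where KLF4 was not called, CDKN1A rose 1.93-fold, CCND1 1.63-fold and CDKN1C (p57), a further inhibitor of cyclin-dependent kinases, 3.3-fold, while LEFTY1 fell 1.6-fold. KRT19 measured -0.46 and LAMA1, a laminin chain, 0.15 there.

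The other STAT factors reported here, STAT5B and STAT6, did not fall with STAT3. With SOX2 silenced STAT5B was 1.52-fold and STAT6 1.5-fold higher and both were called, although STAT6 lost the call when any of mock replicates 2 and 3 or SOX2 replicates 2 and 3 was left out, and STAT5B without mock replicate 3 or SOX2 replicate 3. With OCT4 silenced neither was called, at 0.54 on the log2 scale for STAT5B and 0.53 for STAT6, and both were called there with median or rank-invariant scaling. With NANOG silenced, where STAT3 was higher, STAT5B measured 0.29 and STAT6 -0.45, and neither was called.

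Upstream of STAT3, the cytokine IL11, a gp130 ligand, was detected on none of the mock arrays. It rose at least 8.39-fold with OCT4 silenced and at least 9.53-fold with SOX2 silenced. With NANOG silenced IL11 was at least 1.38-fold higher, which was not called with rank-invariant scaling or by the methods' t-test. CNTFR, the ligand-binding receptor chain for CNTF, was not detected on any mock or NANOG array. It was at least 1.35-fold and at least 1.45-fold higher with OCT4 and SOX2 silenced. IL11 and CNTFR passed the detection filter only through groups where they were high, so their direction against mock was set in advance. JAK1, the kinase of gp130 receptors, rose 1.99-fold (adjusted p = 1.47e-05) and 2-fold (adjusted p = 1.31e-05), and measured -0.28 on the log2 scale with NANOG silenced (adjusted p = 0.0901). No other ligand, receptor or kinase of the lists had a named probe.

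Among inhibitors of STAT signalling only 3 genes had named probes, because the study had listed them as changed. All 4 of these probes were lower, as was STAT3, in the OCT4 and SOX2 knock-downs. In these comparisons 33.4% and 31.4% of all named probes, and 10.8% and 10.5% of all tested probes, were called lower. SOCS2, a suppressor of cytokine signalling, fell 4.51-fold and 4.58-fold, and SOCS1, which inhibits JAK kinases, fell 1.96-fold and 1.81-fold. The raw signal of SOCS1 averaged 184 on the mock arrays, 189 with OCT4 silenced and 169 with SOX2 silenced, and neither change was called without normalization between arrays. PTPN2, a phosphatase of JAK and STAT proteins, fell 2.76-fold and 2.85-fold at a probe for a single isoform and 3.19-fold and 2.92-fold at a probe for all isoforms. With NANOG silenced both PTPN2 probes fell, 2.17-fold and 2.24-fold, whereas SOCS2 measured -0.01 and SOCS1 -0.30 and neither was called. SOCS3, the inhibitor induced by STAT3, had no named probe.

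Of 10 named probes for STAT3 target genes, 7 rose, 2 fell and 1 was not called in each of the OCT4 and SOX2 knock-downs. Their median change was 1.09 and 1.24 on the log2 scale. Of all named probes, 46.7% and 45.5% were called higher and 33.4% and 31.4% lower. Of all tested probes, 14% and 13.5% were called higher and 10.8% and 10.5% lower. JUN, a subunit of AP-1, was detected on none of the mock arrays and rose at least 4.78-fold and at least 5.61-fold. A2M, an acute-phase protease inhibitor likewise not detected in mock cells, rose at least 3.11-fold and at least 2.72-fold. JUN and A2M passed the detection filter only through groups where they were high, so their direction against mock was set in advance. BCL6, a transcriptional repressor detected on 1 of the 3 mock arrays, rose 3.89-fold and 3.81-fold, and IRF1, an interferon-regulated factor, 2.82-fold and 2.85-fold. CEBPD rose 1.89-fold and 2.11-fold while CEBPB, of the same family, fell 1.72-fold and 1.71-fold, and FOS, the partner of JUN, fell 1.86-fold and 1.69-fold, the latter not called with rank-invariant scaling. In raw signal CEBPB averaged 2234 on the mock arrays and 2042 with OCT4 silenced, and FOS 223 and 234. Without normalization between arrays CEBPB, FOS and LEFTY1 were not called with OCT4 or SOX2 silenced, nor CEBPB and LEFTY1 with NANOG silenced. With NANOG silenced, where STAT3 was 1.48-fold higher, 3 of the 10 rose (JUN, BCL6 and CCND1), 2 fell (FOS, 2.74-fold, and CEBPB, 1.65-fold) and 5 were not called, and their median was 0.16 against 0.01 over all tested probes. In that comparison 15.9% of all named probes were called higher and 12.1% lower, against 5.19% and 4.34% of all tested probes. BCL6 lost its call there under the methods' t-test after Benjamini-Hochberg adjustment (adjusted p = 0.0639). With no background correction several smaller changes came to less than 1.5-fold and were not called: SOCS1, LEFTY1 and FOS with OCT4 or SOX2 silenced, STAT5B, STAT6 and PIM1 with SOX2 silenced, and BCL6, IL11, JUN and LEFTY1 with NANOG silenced.

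**Figure D5:**
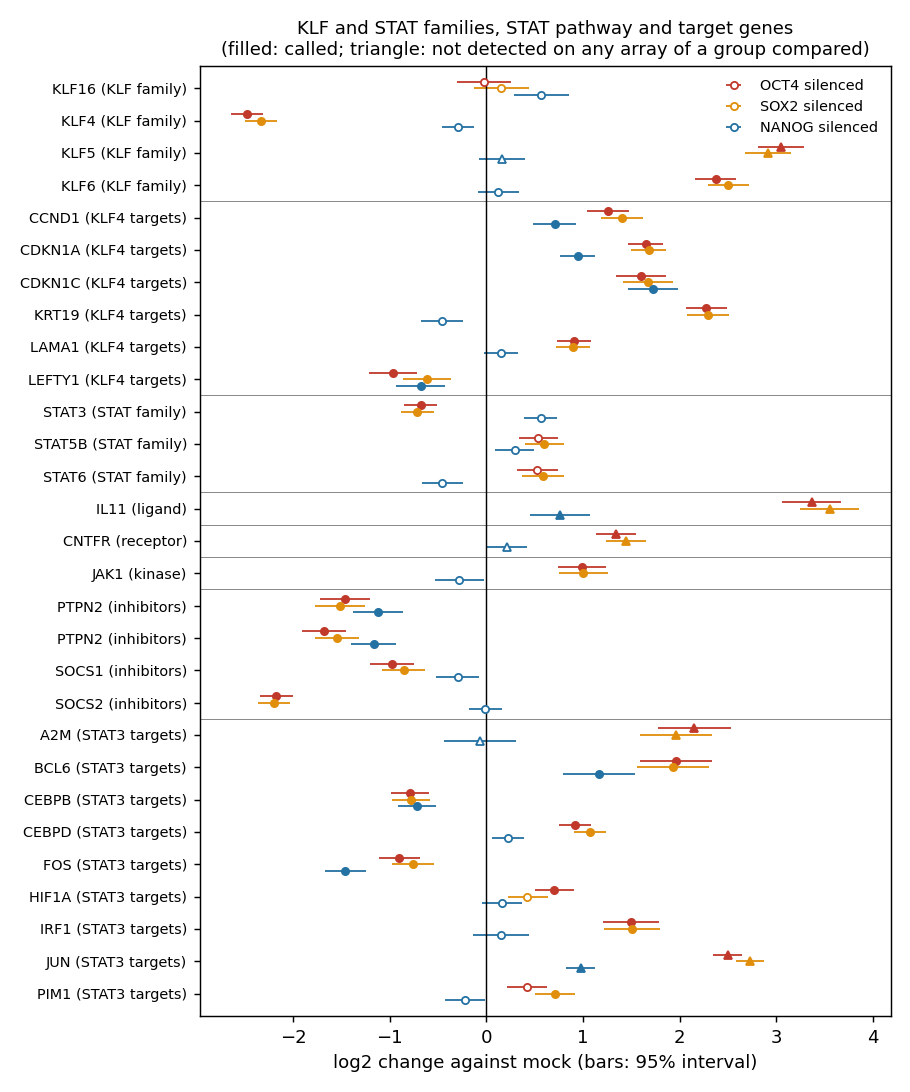
Log2 change against mock (horizontal axis, with 95% intervals) of KLF4, STAT3 and the other named probes of their families, the STAT pathway and the target lists in the OCT4 (red), SOX2 (orange) and NANOG (blue) knock-downs; filled points were called, and triangles are measured values, not bounds, of probes detected on no array of a group compared. KLF6 lies at 2.38 and 2.51 where KLF4 lies at -2.48 and -2.33, and the 4 inhibitor probes lie below 0 with STAT3 in the OCT4 and SOX2 knock-downs.

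Of the core and reprogramming factors with a named probe, LIN28A, an RNA-binding protein of undifferentiated cells, fell 1.55-fold with OCT4 silenced and measured -0.55 with SOX2 silenced, where it was called with median or rank-invariant scaling. Its call with OCT4 silenced was lost without OCT4 replicate 2 and without normalization between arrays, where its raw signal averaged 3259 in mock cells and 3221 with OCT4 silenced. It measured 0.13 with NANOG silenced. NANOG itself was detected on no array of the OCT4 or SOX2 knock-down and was at least 9.34-fold and at least 9.62-fold lower than in mock cells. POU5F1 with NANOG silenced measured -0.42 (adjusted p = 0.0279), 1.34-fold, not called, as for KLF4 at -0.29.

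The values that the authors deposited as means over the replicates, normalized by them, were 493.8 for KLF4 in mock cells, 82.7 with OCT4 silenced, 95.4 with SOX2 silenced and 391.9 with NANOG silenced. For STAT3 the authors' means were 691, 422, 425.2 and 1005.5 in the same order. The order of the groups was that of the normalized intensities above for KLF4, while for STAT3 the OCT4 and SOX2 means, whose arrays overlapped, were in the opposite order.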

How the data were processed

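Total RNA of NCCIT cells was amplified, labelled and hybridized by the authors to Illumina human-6 or human-8 BeadChips as biological triplicates of mock, OCT4, SOX2 and NANOG knock-down cells. Deposited were, for each of 12 arrays, the raw signal intensity of 47293 probes, with a detection score that is a fraction between 0 and 1, and per group a mean intensity that the authors had background-subtracted and scaled on rank-invariant probes in BeadStudio 1.0. The raw intensities were used. Background was corrected with normexp from the detection scores (offset 16), followed by quantile normalization and log2, in limma 3.58.1 (R 4.3.3). Probes detected (score above 0.99) on all 3 arrays of at least 1 group were tested, 12374 in all, with lmFit on 4 group means and eBayes, and p-values were adjusted by Benjamini-Hochberg over all of them. A call needed an adjusted p under 0.05 and 1.5-fold. On simulated data with 200 of 12374 probes changed by 1 on the log2 scale, made for the comparison of OCT4 with mock, 97.5% were recovered with 2 false calls. The simulation drew independent noise on already normalized values, so background correction and normalization were not exercised. Its changes were as often up as down and far fewer than the calls on the real arrays. It checks the fit only and gives no error rate for the calls reported here.

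A probe detected on no array of a group has only a bound there: the brighter group's mean was set against the mean, per array, of the higher of the probe's own value and the lowest value of a detected probe. Such a probe passed the filter only through groups that detected it, so its direction against them was set by the filter. Names came from the study's list of changed genes (2985 probes, of which 2481 matched a RefSeq accession), and its tables are held here in part, so genes without a name were not analysed. The genes named in the text were the members, the silenced factors, the 5 named probes most alike in Pearson's r and the members of lists written from general knowledge, some of which are not reported here. The members and lists were chosen with earlier results of these data known. Array number limits the precision: 3 biological replicates of 1 cell line. The labels give no replicate numbers, and array numbers in the files did not pair the arrays (3 of 12 arrays matched best to their own number). Alternatives covered background, scaling, filter, test, threshold, block and single arrays left out.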

Additional observations from a re-analysis of the deposited data

How the results depend on the processing

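KLF4 was called lower with OCT4 and with SOX2 silenced, and both genes were called higher with NANOG silenced than with OCT4 or SOX2 silenced, under every alternative that gave a test. The authors' means gave KLF4 a change of -2.58 with OCT4 silenced. With no normalization between arrays, an alternative added after the raw signals were seen, STAT3 changed by 0.022 with OCT4 silenced, by -0.44 with SOX2 silenced (not called) and by 0.77 with NANOG silenced (called), the KLF4 difference between OCT4 and SOX2 turned to 0.25, and KLF16 with OCT4 silenced (0.77) and SOCS2 (0.19) and PIM1 (0.037) with NANOG silenced turned in sign. That setting called 7242 probes with OCT4 silenced, 917 between OCT4 and SOX2 and 4872 between NANOG and OCT4, and only 4.1% of the calls with OCT4 silenced were lower, against 43.6% with quantile normalization; with SOX2 and NANOG silenced the lower share was 14.5% and 16.3%, against 43.7% and 45.5%. Rank-invariant scaling gave 33.7% lower with OCT4 silenced and 32.9% with SOX2 silenced. KLF16 with OCT4 silenced was 0.10 with median scaling, 0.18 with rank-invariant scaling and 0.23 with subtraction, rank-invariant scaling and a floor of 20, which was also added later.

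By the adjusted p alone the KLF4 (-0.29) and STAT3 (0.56) changes with NANOG silenced were called, and the calls numbered 6998 for OCT4, 6825 for SOX2 and 3785 for NANOG against mock, 6426 for NANOG against OCT4 and 6354 for NANOG against SOX2. The main counts were 3065, 2976, 1179, 2654 and 2650. With no background correction these counts were 1481, 1498, 376, 1240 and 1294. The methods' t-test after Benjamini-Hochberg gave 769 for NANOG against mock. Between OCT4 and SOX2, where the count was 0, there were 13 calls with no background correction, 15 with rank-invariant scaling, 6 with subtraction and the floor, 20 and 1 by the methods' t-test before and after Benjamini-Hochberg, 35 with an intensity trend and 2 with only these groups in the fit. The cause of these shifts was not tested, except that a threshold without a fold limit admits smaller changes.

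With 1 array left out at a time, STAT3 with NANOG silenced ran from 0.51 to 0.62, the count between OCT4 and SOX2 from 0 to 6, KLF16 with OCT4 silenced from -0.10 to 0.065, SOCS2 with NANOG silenced from -0.069 to 0.058 and A2M, detected in neither mock cells nor cells with NANOG silenced, from -0.29 to 0.061 between them. A fit with the array number as a replicate block changed no call of KLF4 or STAT3 (STAT3 with NANOG silenced 0.56, adjusted p = 0.00121). For the other probes of the lists and the core factors, 2231 values of 90 results were compared with the main ones. Of these, 2097 were the same: a refit kept direction and side of the threshold, or an authors' mean stayed within the replicate spread. Of the rest, 43 lost a call, 36 gained one, 40 of the authors' means moved by more than that spread and 15 turned in sign. Floors of other sizes were not run, since the main values have none, and no chip block could be fitted because the files name no chip.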
